A study of Mus musculus with 25 samples.

Results

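The genes described here are the transcription factor gene Nfe2l2 (which encodes NRF2), its inhibitor Keap1, and 8 genes of the oxidative stress response that NRF2 is known to drive, with the heme oxygenase gene Hmox1 among them. They were chosen by name, as Hmox1, Nqo1, Gclc, Gclm, Txnrd1, Srxn1, Slc7a11, Osgin1, Nfe2l2 and Keap1, and all 10 were found among the 44674 genes of a cell culture count table and the 45706 genes of a hypothalamus count table. RNA sequencing was run on 9 libraries of cEND cells, a line of mouse brain endothelial cells, given 0.5 or 10 µM of WZB117, a small molecule that blocks the glucose transporter Glut1, or the vehicle DMSO. Each of these treatments had 1 library at passage 12, 1 at passage 14 and 1 at passage 18, so the replicates are passages of a single line. The sources used here do not give the length of treatment.

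The other 16 libraries came from hypothalami of Slco1c1Cre+/-;ROSA26lSlL10aGFP+/- mice, in which the Slco1c1 promoter drives a tamoxifen-inducible Cre that switches on a GFP-tagged ribosomal protein L10a. The mice were 12 weeks old, male and female, and had received tamoxifen 3 weeks before a high-fat diet (HFD) or a control diet (CD) of 3 days. Every mouse in both diet groups carried the Cre and the tag. Each diet had 4 pools of 4 mice (2 female and 2 male), with libraries of RNA bound to the precipitated tagged ribosomes (IP) and libraries of the whole lysate (INPUT). The labels do not say whether the IP and INPUT libraries of the same number came from the same pool. The study asked what the diet did to ribosome-bound RNA of blood-brain barrier endothelium, and what blocking glucose uptake did to cultured endothelium. Labels call the cells endothelial, but the summed level of 15 pan-endothelial markers was 126 to 151 CPM (counts per 1000000, after scaling) in HFD IP and 113 to 169 CPM in CD IP, against 18551 to 20850 CPM in HFD IP and 20705 to 23878 CPM in CD IP for 12 astrocyte markers. In cEND cells the same endothelial markers summed to 6015 to 8299 CPM and the astrocyte list to 685 to 1029 CPM, most of it from S1pr1, also an endothelial gene (562 CPM on average with DMSO), and the gap junction gene Gja1 (164 CPM), with the water channel gene Aqp4 at or near 0. Libraries held 27.3 to 41.3 M estimated counts in cEND cells and 27.9 to 42.8 M in the hypothalamus (M, 1000000), which left at least 65 counts in every cEND library for Osgin1, the lowest member.

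NRF2 is made continuously and destroyed as fast, because KEAP1 binds it and hands it to a ubiquitin ligase. Oxidants and electrophiles modify KEAP1, NRF2 escapes, enters the nucleus, pairs with a small MAF protein and binds antioxidant response elements beside its target genes. Those targets make glutathione, reduce thioredoxin and quinones, and break down heme. BACH1, a repressor that heme inactivates, holds down Hmox1 at the same elements. In brain, astrocytes are known as a main site of this response, and endothelial cells also use it.

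With 10 µM WZB117, all 10 genes were higher than with DMSO at each of the 3 passages, and 3 of them, Hmox1, Gclm and Srxn1, passed the test on group means (edgeR's quasi-likelihood test, Benjamini-Hochberg adjusted p under 0.05). That is 3 of 10 members called, all higher, where 1.27% of the 15466 genes tested were called and 0.853% were called higher. Libraries of the same passage deviated together, and with passage as a block all 10 members were called higher, where 18.5% of genes were called and 9.23% were called higher. Higher values at all 3 passages were seen in 22.3% of genes tested. The median log2 fold change of the members was 0.63, against -0.01 over all genes tested.

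**Figure D1:**
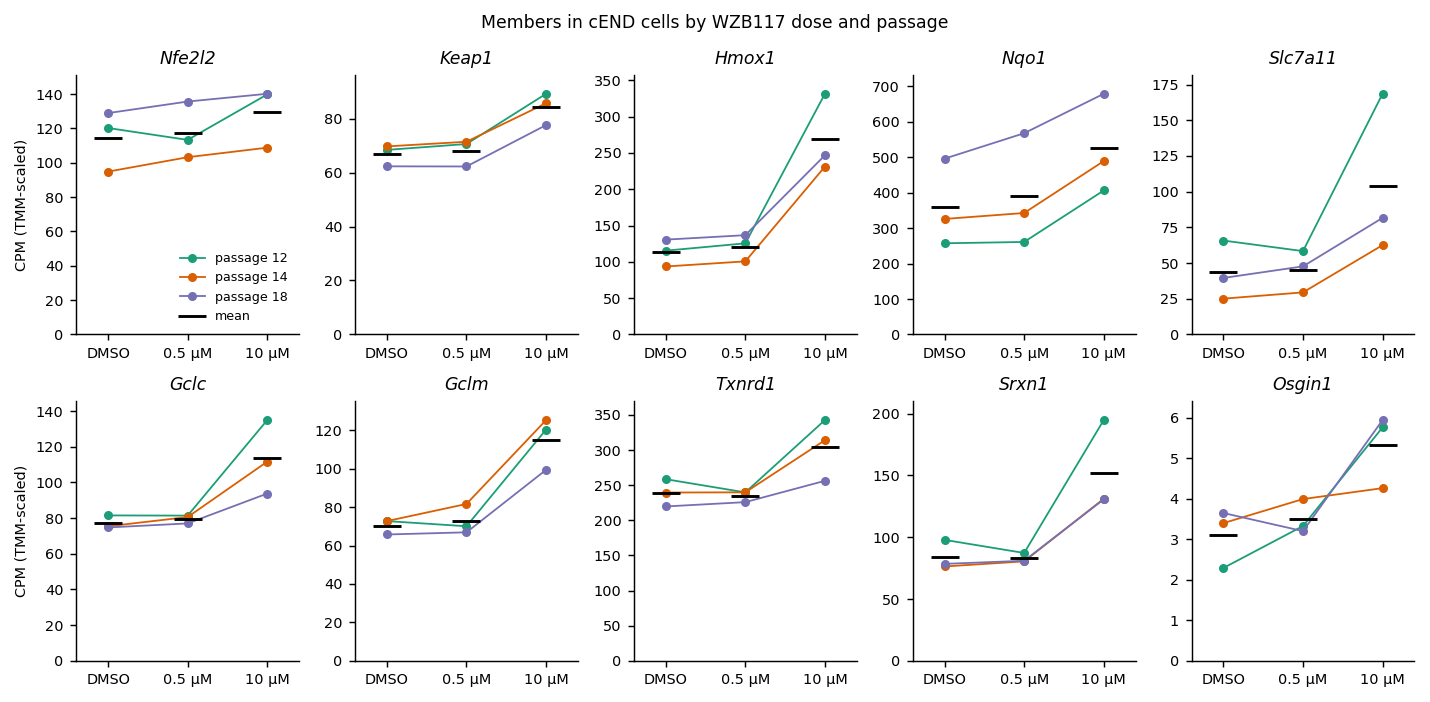
Level of each member (CPM on a common TMM scale, linear axis from 0) in cEND cells with DMSO, 0.5 µM or 10 µM WZB117. Points are single libraries joined within a passage and black dashes are the means of 3 passages; every passage line is higher at 10 µM than with DMSO, while the values at 0.5 µM overlap those of DMSO in each member.

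Among the regulators, Nfe2l2 (ENSMUSG00000015839) stood at 139.8, 109 and 140.1 CPM with 10 µM WZB117 at passages 12, 14 and 18, against 120.2, 94.8 and 129 CPM with DMSO. The groups overlapped, and the log2 fold change of 0.18 ± 0.16 (SE) had an adjusted p of 0.801 on group means and 0.0483 with the passage block. Keap1 (ENSMUSG00000003308), the sensor that keeps NRF2 low, had 89.2, 85.7 and 77.6 CPM with 10 µM WZB117, against 68.4, 69.7 and 62.3 CPM with DMSO. Those groups did not overlap, and the log2 fold change of 0.33 ± 0.09 had an adjusted p of 0.187, or 0.000251 with the block. These were the smallest differences among the members, 1.13-fold for Nfe2l2 and 1.26-fold for Keap1.

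Hmox1 (ENSMUSG00000005413; GRCm38 chromosome 8, 75093621 to 75100589, plus strand) encodes heme oxygenase 1, which cuts heme into biliverdin, iron and carbon monoxide. It stood at 331, 231 and 247 CPM with 10 µM WZB117 at passages 12, 14 and 18, against 115, 93.6 and 131 CPM with DMSO. The lowest treated library lay well above the highest vehicle library. The log2 fold change was 1.25 ± 0.18 (95% interval 0.85 to 1.66), a rise of 2.38-fold, with an adjusted p of 0.0132 and of 1.12e-05 with the passage block.

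Nqo1 (ENSMUSG00000003849) encodes a quinone reductase that is often used as a readout of NRF2. It had 406, 489 and 679 CPM with 10 µM WZB117, against 257, 326 and 496 CPM with DMSO. The groups overlapped, yet each treated library was above the vehicle library of its own passage. The log2 fold change was 0.54 ± 0.33 with an adjusted p of 0.636 on group means, and 0.57 ± 0.07 with an adjusted p of 6.18e-07 with the block. On group means it was 0.36 without the passage 12 DMSO library, 0.31 without the passage 18 library of 10 µM WZB117 and 0.85 without the passage 18 DMSO library.

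Slc7a11 (ENSMUSG00000027737) encodes the cystine importer xCT, which feeds glutathione synthesis. Its levels were 169, 62.6 and 81.6 CPM with 10 µM WZB117, against 65.8, 25.1 and 39.6 CPM with DMSO. The log2 fold change was 1.26 ± 0.44, but the groups overlapped, and the adjusted p was 0.294 on group means and 0.000353 with the block. Without the passage 12 library of 10 µM WZB117 it was 0.73.

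Gclc and Gclm encode the catalytic and the modifier subunit of glutamate-cysteine ligase, the rate-limiting enzyme of glutathione synthesis. Gclm (ENSMUSG00000028124) had 120.4, 125 and 99.4 CPM with 10 µM WZB117, against 72.7, 72.7 and 65.7 CPM with DMSO. Gclc (ENSMUSG00000032350) had 135, 112 and 93.7 CPM with 10 µM WZB117, against 81.5, 75.4 and 74.7 CPM with DMSO. Neither gene's groups overlapped. Gclm rose by 0.71 ± 0.12 on the log2 scale (adjusted p = 0.0211), and Gclc had a log2 fold change of 0.56 ± 0.12 (adjusted p = 0.0793, or 6.46e-06 with the block).

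In the thioredoxin arm, Srxn1 (ENSMUSG00000032802) encodes sulfiredoxin, which repairs overoxidized peroxiredoxins, and Txnrd1 (ENSMUSG00000020250) encodes the cytosolic thioredoxin reductase. Srxn1 stood at 195, 131 and 131 CPM with 10 µM WZB117, against 97.9, 76.3 and 78.5 CPM with DMSO, with no overlap. Srxn1 rose by 0.85 ± 0.17 on the log2 scale, with an adjusted p of 0.0437. Txnrd1 stood at 343, 314 and 256 CPM with 10 µM WZB117, against 258, 239 and 219.7 CPM with DMSO, and the passage 18 treated library lay just below the passage 12 vehicle library. Its log2 fold change of 0.35 ± 0.12 had an adjusted p of 0.272, or 0.000409 with the block. Osgin1 (ENSMUSG00000074063), an oxidative stress-induced growth inhibitor, was the least abundant member at 5.76, 4.26 and 5.94 CPM with 10 µM WZB117, against 2.29, 3.40 and 3.65 CPM with DMSO. The log2 fold change of Osgin1 was 0.77 ± 0.22, with an adjusted p of 0.198 on group means and 0.00428 with the block.

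In all, the groups of 6 of the 10 members did not overlap, each with 10 µM WZB117 higher (Keap1, Hmox1, Gclc, Gclm, Srxn1 and Osgin1), where 8.41% of genes tested were separated in that direction. The calls on group means rested on few libraries. None of the 10 members was called without the passage 12 DMSO library, without the passage 14 DMSO library or without the passage 12 library of 10 µM WZB117, and 1 was called without the passage 18 DMSO library. With the passage block, 8 members were called when passage 12 was left out, and 9 when passage 14 or passage 18 was; Nfe2l2 was uncalled each time (adjusted p 0.0661 to 0.147), and Osgin1 was uncalled without passage 12 (adjusted p = 0.128). Over all genes tested, each single library left out also lowered the number called on group means. Each passage left out lowered the number called with the block (counts are given below). DESeq2 called 5 members, and 493 genes in all.

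**Figure D2:**
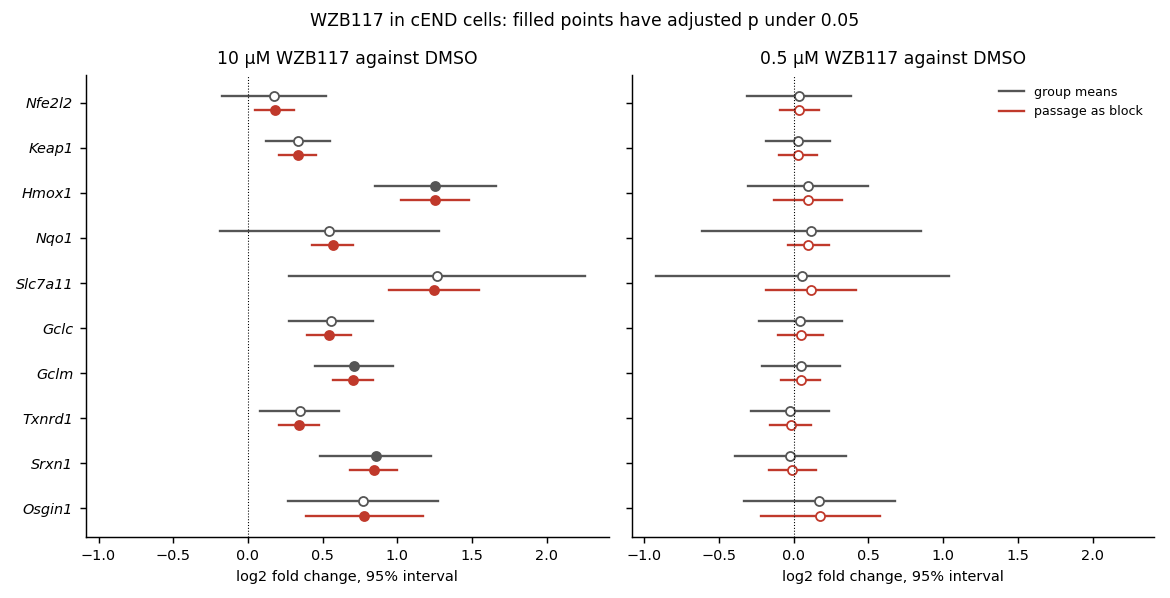
Log2 fold change of each member against DMSO with its 95% interval, at 10 µM (left) and 0.5 µM WZB117 (right), from the fit on group means (grey) and with passage as a block (red). Filled points passed an adjusted p of 0.05; at 10 µM 3 grey and 10 red points are filled, and at 0.5 µM none is.

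The size of the difference varied with passage. Hmox1 was 2.86-fold higher with 10 µM WZB117 than with DMSO at passage 12, 2.46-fold at passage 14 and 1.89-fold at passage 18. For Gclc the same ratios were 1.65, 1.48 and 1.25, and for Slc7a11 they were 2.55, 2.46 and 2.05. The difference was smallest at passage 18 in 8 of 10 members, and at passage 14 in the other two, Keap1 and Osgin1. Of the 3450 tested genes that were higher at all 3 passages, 39.8% had their smallest difference at passage 18. With 1 library for each treatment at each passage, this change of the difference with passage was not tested.

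At 0.5 µM WZB117 none of the 10 members was called against DMSO by edgeR, with or without the passage block, and none reached an unadjusted p under 0.05 on group means or was called by DESeq2. Of all genes tested 0.0% were called, 55 having an unadjusted p under 0.05. Hmox1 averaged 121 ± 18.5 CPM with 0.5 µM WZB117 and 113 ± 18.6 CPM with DMSO (SD, n = 3 passages each). The 95% interval of its log2 fold change ran from -0.30 to 0.50 on group means and from -0.13 to 0.32 with the block, and both lie below the interval at 10 µM. The widest interval on group means was that of Slc7a11, -0.93 to 1.04, which narrowed to -0.19 to 0.42 with the block. All 10 members overlapped between these groups, where 1.36% of genes were separated with 0.5 µM higher and 1.44% with it lower.

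The higher dose against the lower gave Hmox1, Gclm and Srxn1 again as the 3 members called, all higher with 10 µM, where 1.27% of genes were called and 0.86% were called higher. Their log2 fold changes were 1.16 ± 0.18, 0.66 ± 0.12 and 0.88 ± 0.17. With the passage block 9 members were called higher, where 17.8% of genes were called and 9.28% were called higher, and Nfe2l2 was not (log2 fold change 0.14 ± 0.06, adjusted p = 0.135). The groups of 8 members did not overlap, with 10 µM higher, where 8.41% of genes were so separated. None of the members was called on group means without the passage 12 or the passage 14 library of 0.5 µM WZB117 or without the passage 12 library of 10 µM, and 1 was called without the passage 18 library of 0.5 µM or without the passage 14 DMSO library, which shares in the estimate of spread. Each single library left out also lowered the number called over all genes tested (counts are given below). The 10 µM libraries are shared with the comparison to DMSO.

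Other genes of the same pathways had smaller median differences. The list counts below stand beside shares over all genes tested of 0.853% called higher on group means and 9.23% with the block. Of 33 further NRF2 targets tested, 1 was called higher with 10 µM WZB117 than with DMSO on group means, the pentose phosphate enzyme gene Pgd. It averaged 82.0 ± 5.14 CPM with 10 µM WZB117 and 54.0 ± 4.33 CPM with DMSO (SD, n = 3 each), a log2 fold change of 0.60 ± 0.10 (adjusted p = 0.0237). With the passage block 17 of the 33 were called higher and none lower, among them Esd, the efflux pump gene Abcc1 (0.49 ± 0.07) and the catalase gene Cat (0.40 ± 0.06). Their median log2 fold change was 0.23. Among 13 genes for partners and regulators of NRF2, 1 was called on group means, the autophagy receptor gene Sqstm1, whose product competes for KEAP1 (0.60 ± 0.11, adjusted p = 0.0366). The block called 5, led by the small MAF gene Maff, which averaged 50.0 ± 12.0 CPM with 10 µM WZB117 and 23.2 ± 8.58 CPM with DMSO (1.13 ± 0.08, adjusted p = 3.08e-10), and including Bach1 (0.35 ± 0.08).

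Of 21 heme and iron genes, the mitochondrial porphyrin transporter gene Abcb6 was called on group means (0.54 ± 0.09, adjusted p = 0.0278), and the block called 7, all higher, including the heme transporter gene Slc48a1 (0.50 ± 0.07) and the ferritin light chain gene Ftl1 (0.29 ± 0.07). Of 20 glutathione and cystine genes none was called on group means. The block called 2 higher, Slc3a2, which encodes the partner chain of xCT (0.30 ± 0.07), and Gsr, which encodes glutathione reductase (0.23 ± 0.06). It called 1 lower, the glutamine transporter gene Slc1a5 (-0.44 ± 0.06). Over all genes tested the block called 18.5% in either direction and 9.23% higher. Slc7a11 and Slc3a2 are also known targets of ATF4, and of 17 ATF4 response genes 1 was called on group means (Vldlr, 1.28 ± 0.20) and 9 with the block, all higher. Hmox1 is also known as a hypoxia-responsive gene, and of 17 hypoxia response genes 13 were called higher on group means and 16 with the block. The hypoxia list, like the others, was chosen with earlier results of these data known, so its counts are a description only. That list had a median log2 fold change of 1.29, above the 0.63 of the members, and Bnip3 averaged 191 ± 19.1 CPM with 10 µM WZB117 and 21.1 ± 6.68 CPM with DMSO (SD, n = 3). Which of these responses the members' levels followed was not tested. The summed pan-endothelial markers of the cEND cells overlapped between the treatments (6234 to 8249 CPM with 10 µM WZB117, 6015 to 7887 CPM with DMSO), and the summed astrocyte list, of which the block called 1 of 5 tested genes (S1pr1, also an endothelial gene), read 889.8 to 1029 CPM with 10 µM WZB117 and 691 to 811 CPM with DMSO.

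**Figure D3:**
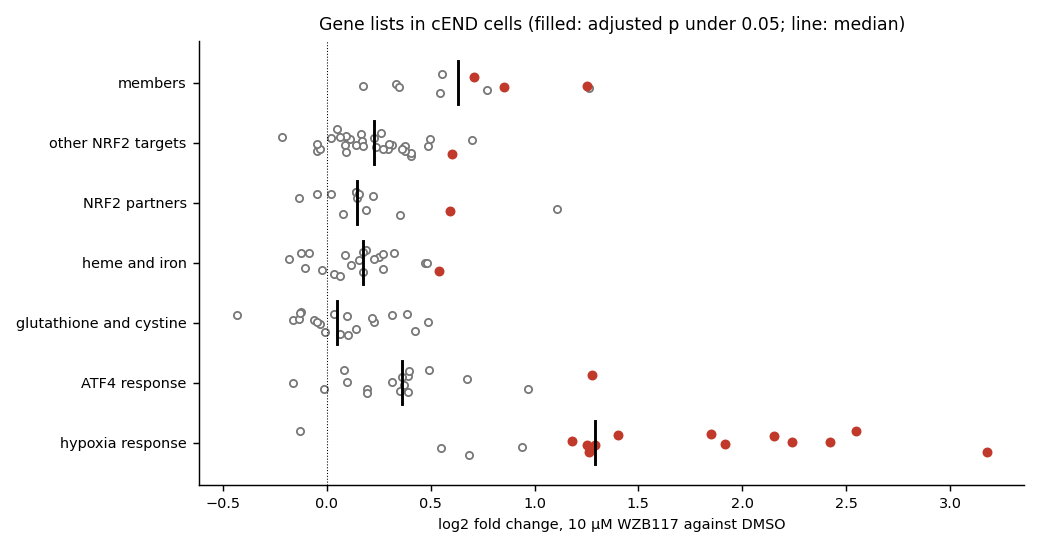
Log2 fold change of every tested gene of each list, 10 µM WZB117 against DMSO in cEND cells, from the fit on group means; filled red points passed an adjusted p of 0.05 and black lines are list medians. The members (median 0.63) lie to the right of the other NRF2 targets (0.23) and to the left of the hypoxia response genes (1.29).

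The genes whose log2 CPM followed Hmox1 most closely over the 9 cEND libraries were Egln3 (a prolyl hydroxylase of HIF), Rora, Ndrg1, Map3k1 and Whamm, with Pearson r from 0.984 to 0.992 among 10651 genes ranked. Of the members, Srxn1 came nearest at r = 0.941 (rank 98) and Gclc next at 0.901, while Nqo1 had r = 0.536. These 9 points share 3 passages and 3 treatments, and the values describe likeness only.

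Promoter windows of 300 bases, 250 before and 50 from the transcription start on, were taken from RefSeq (build GRCm38.p6) for 8 of the 10 members, 10 windows in all; those of Hmox1 and Gclc were not analysed here. Both strands were searched for TGACNNNGC, the core of an antioxidant response element, and for TGANTCAGC, its NRF2-MAF form. The first was found in 12.4% and the second in 1.19% of 32851 mouse promoter windows, and 13.0% held either. Of the 8 members, 5 had a match, and Keap1, Nqo1 and Slc7a11 had none in these windows. Counted by window, as the shares above are, 5 of the 10 held a match. The windows of Srxn1 and Gclm, called higher at 10 µM on group means, and of Osgin1 are shown because they hold such matches, written in capitals. They lie at chr2:152105274-152105573 (plus strand), chr3:122245307-122245606 (plus strand) and chr8:119436897-119437196 (plus strand).
Srxn1: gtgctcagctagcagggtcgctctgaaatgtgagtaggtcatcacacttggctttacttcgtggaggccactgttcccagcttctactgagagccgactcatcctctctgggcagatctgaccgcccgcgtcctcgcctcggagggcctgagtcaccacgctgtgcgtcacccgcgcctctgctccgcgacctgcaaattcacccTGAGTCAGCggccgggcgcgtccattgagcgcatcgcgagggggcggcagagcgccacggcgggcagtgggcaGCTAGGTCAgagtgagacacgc
Gclm: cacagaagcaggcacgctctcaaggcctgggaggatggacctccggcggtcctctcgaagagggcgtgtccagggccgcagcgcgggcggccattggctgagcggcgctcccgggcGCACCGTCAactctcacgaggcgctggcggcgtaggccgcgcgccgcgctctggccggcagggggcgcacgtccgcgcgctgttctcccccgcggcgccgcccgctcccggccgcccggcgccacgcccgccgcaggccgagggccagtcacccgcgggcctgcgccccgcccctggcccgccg
Osgin1: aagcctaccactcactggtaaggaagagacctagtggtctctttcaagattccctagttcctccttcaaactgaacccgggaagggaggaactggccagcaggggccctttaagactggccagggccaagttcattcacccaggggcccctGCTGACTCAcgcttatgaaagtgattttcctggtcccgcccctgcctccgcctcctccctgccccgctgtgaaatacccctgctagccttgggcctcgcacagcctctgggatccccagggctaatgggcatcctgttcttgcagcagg
In Srxn1 the match TGAGTCAGC spans positions -45 to -37 from the start, and TGACCTAGC lies on the opposite strand at 29 to 37. Osgin1 has TGAGTCAGC on the opposite strand at -99 to -91, and Gclm has TGACGGTGC on the opposite strand at -134 to -126. These are matches of letters and not measured binding sites.

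Passage also separated several members. Each passage had 3 libraries, 1 per treatment, of a single culture series. Treatment was a covariate, so the p-values measure the spread left after a common passage and a common treatment difference are removed. Nqo1 was called higher at passage 14 than at passage 12 (0.33 ± 0.07 on the log2 scale, adjusted p = 0.000535) and at passage 18 than at passage 12 (0.94 ± 0.07, adjusted p = 2.38e-11). Its DMSO libraries read 257, 326 and 496 CPM at passages 12, 14 and 18. Slc7a11 did the opposite: it fell by 1.28 ± 0.13 on the log2 scale at passage 14 and by 0.70 ± 0.13 at passage 18, both relative to passage 12.

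At passage 14 against passage 12, 5 members were called, where 21.6% of genes were (10.1% higher and 11.5% lower): Nqo1 higher, and Nfe2l2, Hmox1 (-0.39 ± 0.10), Slc7a11 and Srxn1 lower. At passage 18 against passage 12, 7 were called, where 35.1% of genes were (15.9% higher and 19.2% lower). Nqo1 was again the 1 higher, and Keap1, Slc7a11, Gclc, Gclm, Txnrd1 and Srxn1 were lower, by 0.16 to 0.70 on the log2 scale. At passage 18 against passage 14, 6 were called, where 33.1% of genes were (15.8% higher and 17.3% lower), with Nfe2l2 (0.40 ± 0.06), Hmox1 (0.34 ± 0.10), Nqo1 and Slc7a11 higher and Keap1 and Gclm lower. Hmox1 thus had its lowest vehicle value at passage 14 (93.6 CPM), and its passage 18 against passage 12 difference of -0.04 ± 0.10 was not called (adjusted p = 0.793). The fit takes a common passage difference, while Hmox1 differed by 0.18 with DMSO, 0.12 with 0.5 µM and -0.43 with 10 µM WZB117. Every member called lower at passage 18 than at passage 12 fell most with 10 µM WZB117. In the same order of treatments, Gclc differed by -0.12, -0.079 and -0.52, and Srxn1 by -0.32, -0.11 and -0.57. These values come from the same libraries as the smaller 10 µM difference at passage 18. Several of the passage calls were fragile. Over 14 alternative settings, 9 of them leaving out 1 library, Gclm was called at passage 18 against 12 in 2 settings and Keap1 in 5, and at passage 18 against 14 Keap1 was called in 3, Hmox1 in 8 and Slc7a11 in 10, while Nqo1 was called at passage 18 against 12 in all 14. Hmox1 at passage 14 against 12 was uncalled without the passage 14 library of DMSO or of 10 µM WZB117. Without the treatment term the 3 comparisons called 0, 1 and 1 members, and fewer of all genes tested were called in each (counts are given below). Of single libraries left out, that of 10 µM WZB117 at passage 18 lowered the passage 18 against 12 count of members to 3 and that at passage 12 lowered it to 4. The passage 18 against 14 count of members fell to 3 without either the passage 14 or the passage 18 DMSO library, or without the passage 14 library of either dose. How many of all genes were called with those libraries left out is not given here, so these falls are not set against a background.

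**Figure D4:**
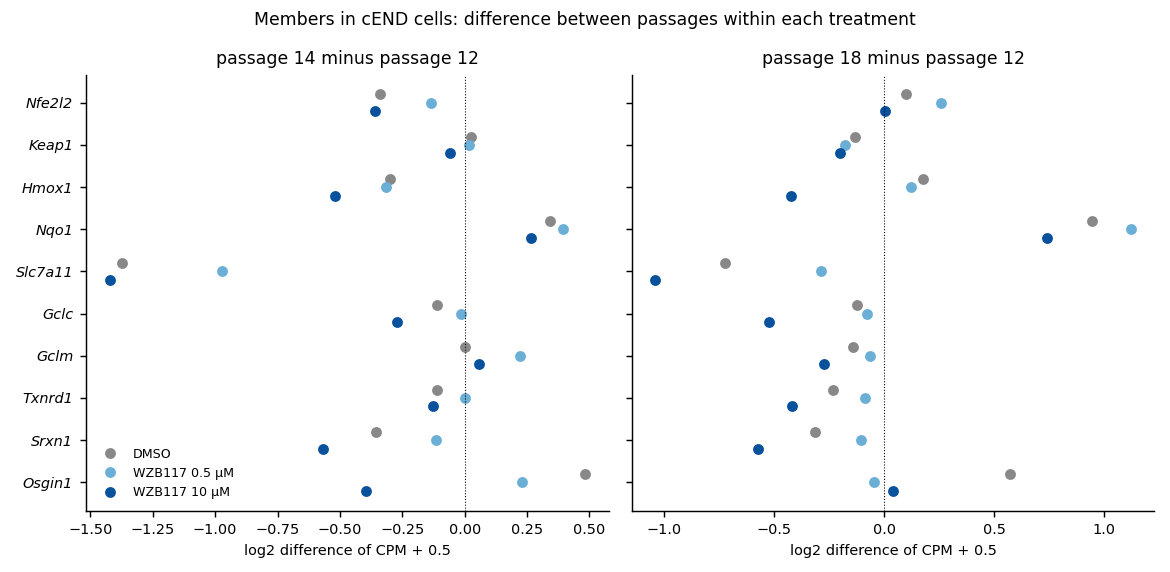
Log2 difference (CPM + 0.5) of each member between passages 14 and 12 (left) and between passages 18 and 12 (right), with a point for each treatment, single libraries throughout. Nqo1 lies right of 0 and Slc7a11 left of 0 in all 3 treatments of both panels.

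In the hypothalamus, RNA bound to the tagged ribosomes was richer than the lysate in 8 of the 10 members and poorer in Srxn1. These 9 calls stand beside a background of 83.7% of 17592 genes called (41.6% of the genes higher in IP and 42.1% lower), and the members' median log2 fold change was 0.65, against -0.02 over all genes tested. In 6 members no IP library overlapped an INPUT library, all with IP higher, where 30.4% of genes were separated in that direction. In such bulk RNA, more cells of a type and more RNA per cell cannot be told apart.

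The leading members were Hmox1, Nqo1, Slc7a11 and Nfe2l2. Hmox1 read 26.8, 26.4, 26.2 and 33.0 CPM in the HFD IP pools and 18.2, 21.5, 24.6 and 17.7 CPM in the CD IP pools, against 4.69 to 8.25 CPM in the 8 INPUT libraries. Its log2 fold change was 2.03 ± 0.10 (adjusted p = 4.69e-14), or 4.09-fold. Slc7a11 averaged 300.9 ± 17.96 CPM in CD IP and 77.8 ± 2.97 CPM in CD INPUT (SD, n = 4 pools each; 1.91 ± 0.05 over both diets). Nfe2l2 averaged 109 ± 13.7 CPM in CD IP and 29.4 ± 1.78 CPM in CD INPUT (1.85 ± 0.06), and Nqo1 8.92 ± 1.82 CPM in CD IP and 2.45 ± 0.29 CPM in CD INPUT (1.95 ± 0.10).

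Gclm (0.53 ± 0.04), Txnrd1 (0.43 ± 0.05) and Gclc (0.22 ± 0.05) rose by less, although Gclm and Txnrd1 were higher in each IP library than in every INPUT library. Gclm averaged 128 ± 7.32 CPM in HFD IP and 89.3 ± 3.01 CPM in HFD INPUT, and 129 ± 3.79 CPM in CD IP and 88.9 ± 1.297 CPM in CD INPUT. Txnrd1 averaged 43.7 ± 3.00 CPM in HFD IP and 31.4 ± 1.98 CPM in HFD INPUT, while Gclc averaged 62.4 ± 1.78 CPM in HFD IP and 55.0 ± 4.61 CPM in HFD INPUT. Srxn1 averaged 43.9 ± 3.25 CPM in CD IP and 50.6 ± 2.73 CPM in CD INPUT and was called lower, with a log2 fold change of -0.18 ± 0.05 (adjusted p = 0.00117) that held its sign under each scaling tried. Keap1 averaged 31.6 ± 5.03 CPM in CD IP and 29.7 ± 0.91 CPM in CD INPUT; its log2 fold change of 0.03 ± 0.06 was uncalled (adjusted p = 0.627) and turned to -0.0043 with RLE size factors. Osgin1 had 4 to 18 counts in the hypothalamic libraries. It was called higher in IP (0.77 ± 0.31, adjusted p = 0.0265), a call that DESeq2 did not make (adjusted p = 0.0702) and that was lost when HFD IP 1, CD IP 4, HFD INPUT 3, CD INPUT 3 or CD INPUT 4 was left out (adjusted p 0.0509 to 0.0674).

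Of the further NRF2 targets, 27 of 33 were called higher in IP and 3 lower, with a median log2 fold change of 0.70. Over all genes tested 41.6% were called higher and 42.1% lower. Prdx6, a peroxiredoxin gene, averaged 699.7 ± 74.1 CPM in CD IP and 121 ± 3.09 CPM in CD INPUT (2.54 ± 0.05), and the microsomal glutathione transferase gene Mgst1 had a log2 fold change of 3.17 ± 0.08. Of 24 glutathione and cystine genes 15 were called higher and 5 lower, a number called near the 83.7% of all genes called in either direction. Among them, Slc3a2 stood at 2.28 ± 0.05 and the transsulfuration gene Cbs at 3.00 ± 0.07. Of 21 heme and iron genes 10 were called higher in IP and 6 lower, with a median log2 fold change of 0.06. In that list the iron storage genes Fth1 and Ftl1 fell by 2.38 ± 0.06 and 1.58 ± 0.07 on the log2 scale. Blvrb, which encodes a biliverdin reductase, rose by 1.71 ± 0.06. The summed astrocyte markers moved with these genes (18551 to 23878 CPM in IP, 2599 to 3384 CPM in INPUT), as did the pan-endothelial markers (113 to 169 CPM in IP, 25.2 to 35.7 CPM in INPUT). So did the choroid plexus markers (101 to 174 CPM in IP, 15.8 to 21.8 CPM in INPUT) and the tanycyte and ependymal markers (128 to 185 CPM in IP, 40.8 to 50.2 CPM in INPUT). The microglia and macrophage markers went the other way (29.3 to 39.2 CPM in IP, 254 to 354 CPM in INPUT). The neuron markers also fell (3630 to 5054 CPM in IP, 9649 to 11589 CPM in INPUT), as did the oligodendrocyte markers (611 to 743 CPM in IP, 2572 to 3056 CPM in INPUT). Fibroblast and erythroid sums were lower in IP as well. Their part in the members' differences was not tested.

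**Figure D5:**
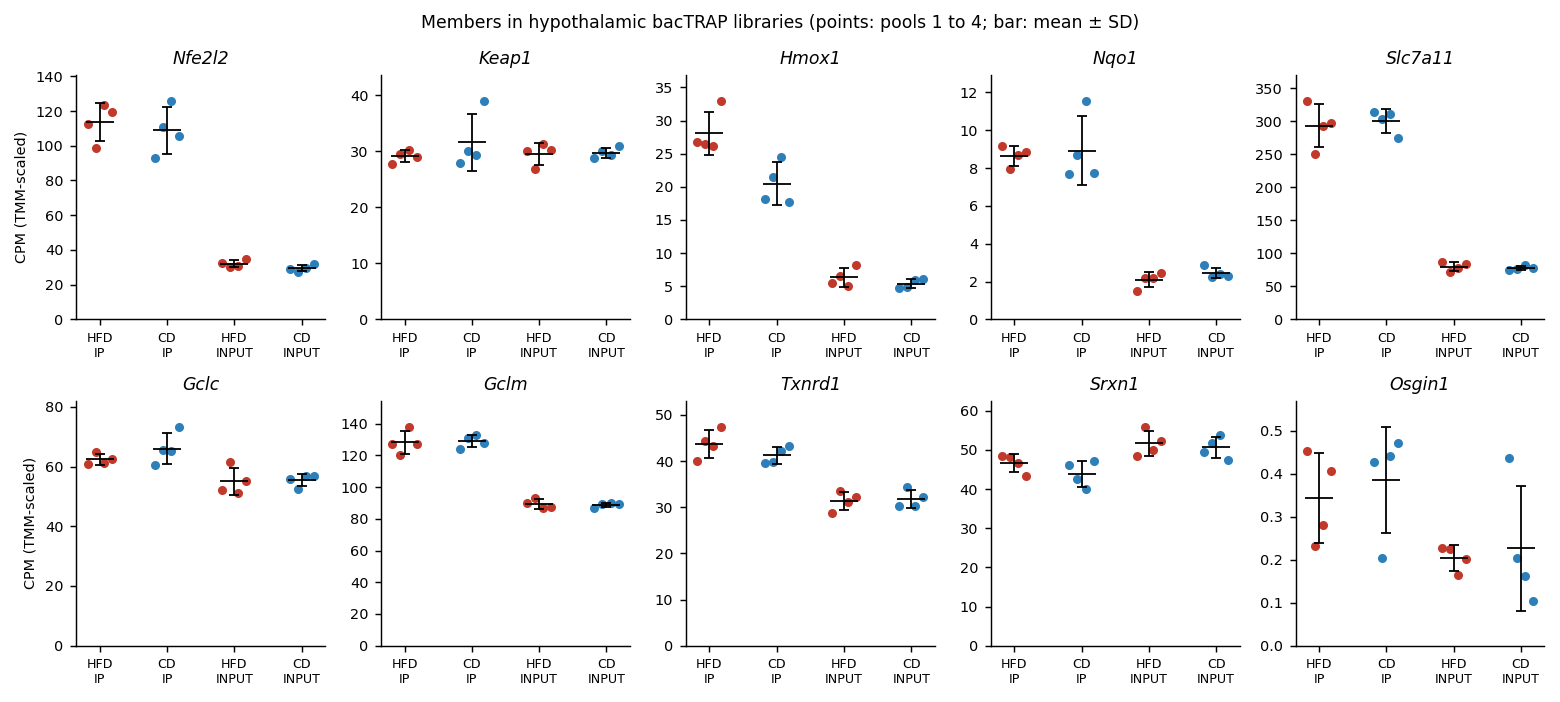
Level of each member (CPM on a common TMM scale, linear axis from 0) in 4 pools of each hypothalamic group, with HFD in red, CD in blue and the mean ± SD in black. Hmox1, Nqo1, Slc7a11 and Nfe2l2 are several times higher in IP than in INPUT, and the HFD IP and CD IP pools are apart in Hmox1 and in no other member.

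After 3 days of high-fat diet no member was called by edgeR in either fraction, and Hmox1 came nearest. In IP, where 0.0883% of 15858 genes were called, edgeR called 0 of 10 members, 1 (Hmox1) had an unadjusted p under 0.05, and DESeq2 called 1 (Hmox1). Over all genes, 1831 of the 15858 had an unadjusted p under 0.05 with edgeR, and DESeq2 called 193. The pools of Hmox1 given above did not overlap, from 26.2 to 33.0 CPM in HFD IP and from 17.7 to 24.6 CPM in CD IP, a separation that 2.76% of genes showed in that direction. Its log2 fold change was 0.48 ± 0.11 (95% interval 0.25 to 0.70, or 1.39-fold), with an adjusted p of 0.0839. The adjusted p was 0.00833 with DESeq2 and 4.7e-05 without the filter on low counts. The highest pool, HFD IP 4, weighed on the size: without it the log2 fold change was 0.38 ± 0.10 (adjusted p = 0.226).

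Of the marker lists, the summed astrocyte markers were lower on the median with HFD, at 18551 to 20850 CPM in HFD IP (median 19298) and 20705 to 23878 CPM in CD IP (median 23284). The pan-endothelial sums overlapped between the diets, as did the microglia and macrophage sum (29.5 to 34.2 CPM in HFD IP, 29.3 to 39.2 CPM in CD IP) and the erythroid sum (8.02 to 15.2 CPM in HFD IP, 8.49 to 13.7 CPM in CD IP). Their part in the Hmox1 difference was not tested.

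The other 9 members overlapped between the diets in IP, with log2 fold changes from -0.11 to 0.10; the widest 95% interval among them was that of Osgin1 (-0.92 to 0.70) and the next that of Nqo1 (-0.28 to 0.24).

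In INPUT, where 0.0355% of 16879 genes were called, edgeR and DESeq2 each called 0 of the 9 members tested, and none had an unadjusted p under 0.05. Over all genes, 1258 of the 16879 had an unadjusted p under 0.05 with edgeR, and DESeq2 called 50. Osgin1 was too low to test. Hmox1 read 5.55, 6.49, 5.05 and 8.25 CPM in HFD INPUT and 4.69, 4.86, 5.88 and 6.12 CPM in CD INPUT, and the groups overlapped. Its log2 fold change was 0.24 ± 0.15 (95% interval -0.07 to 0.55, adjusted p = 0.753). The diet effect in IP minus that in INPUT was 0.22 ± 0.20 on the log2 scale (interval -0.19 to 0.63, adjusted p = 0.99985), so a difference of the diet effect on Hmox1 between the fractions was not shown. For this interaction edgeR called 0 of 10 members, 0 of them at an unadjusted p under 0.05, and 0 of 17592 genes, with 755 at an unadjusted p under 0.05; DESeq2 called 2 genes and no member.

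Per kilobase of exon, the members stood in another order in each system. With DMSO in cEND cells Nqo1 led at 232 CPM per kb, then Hmox1 at 64.7, Txnrd1 at 33.8, Nfe2l2 at 30.2 and Srxn1 at 29.9 CPM per kb, of which Txnrd1, Nfe2l2 and Srxn1 overlapped. Slc7a11 at 3.12 and Osgin1 at 1.16 CPM per kb were the lowest. In CD IP Nfe2l2 led at 28.7 CPM per kb, followed by Slc7a11 at 21.6 and Gclm at 20.5, which overlapped, and Nqo1 ranked ninth at 5.74 CPM per kb. In CD INPUT Srxn1 led at 17.95 CPM per kb. The tables were scaled separately, so these orders hold within a table. Exon length joined the exons of all annotated transcripts of a gene, 13922 bases for Slc7a11 and 7086 for Txnrd1. The orders therefore depend on that length too, and which transcripts were present was not tested. Genes on the opposite strand overlap Slc7a11, Keap1, Gclm and Txnrd1, and genes on the same strand overlap Slc7a11, Gclm, Txnrd1 (the protein-coding gene Eid3) and Nfe2l2. These are overlaps of whole gene bodies, and shared exons were not examined. How counting treated strand and overlaps is not stated in the sources, so whether these pairs share reads is not known.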

How the data were processed

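The authors deposited estimated counts per Ensembl gene for both experiments, not scaled to a common total; 17.3% (hypothalamus) and 19.8% (cEND) of values are not whole numbers. The build was GRCm38, per the submitters' processing notes; the counting program and annotation are not given in the sources used here. Counts were rounded, low genes removed (filterByExpr), and tested with edgeR 4.0.16 (TMM scaling, quasi-likelihood) in R 4.3.3, after tests on simulated data; DESeq2 1.42.0 was an alternative. WZB117 and passage used 9 cEND libraries, IP against INPUT 16, and each diet comparison the 8 libraries of its fraction. Calls have an adjusted p under 0.05 over all genes tested. Errors of log2 fold changes are SE. Per-passage ratios use CPM + 0.5. Symbols, coordinates and exon lengths came from GENCODE M21.

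Same-passage cEND libraries deviated together (correlations 0.378 to 0.577 after removing treatment means), so passage pairs them, as the labels' passage numbers do. The labels name no separate cultures, so p-values measure the spread between these libraries. Members and gene lists were chosen with earlier results of these data known. Named genes are all members, up to 4 genes per direction of each list by smallest p among those called, on group means or with the block, defining cell type markers where a marker list is given, and the 5 most like Hmox1 in cEND cells; the like ranking in the hypothalamus is not reported here.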

Additional observations from a re-analysis of the deposited data

Results flagged for a closer look

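Of the 40 member and group combinations of 4 hypothalamic pools, 3 had a pool far from the other 3 by Dixon's criterion, which flags about 1 group in 20 by chance. Hmox1 was highest in HFD IP pool 4, at 32.99 CPM, with the other 3 HFD IP pools between 26.2 and 26.8 CPM. Gclm was lowest in CD INPUT pool 1, at 87.01 CPM, in a group that reached only 89.8 CPM. Osgin1 was lowest in CD IP pool 2, at 0.2043 CPM, from 9 counts.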

How the results depend on the processing

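For 10 µM WZB117 against DMSO, DESeq2 called 493 genes and 5 members, and the passage block 2864 genes and all 10; block and passage left out together were chosen after seeing the data and gave 1628 genes and 8 members without passage 12, 2412 and 9 without passage 14, and 1998 and 9 without passage 18. Single libraries left out gave 38 to 195 genes and 0 to 3 members. Against 0.5 µM, DESeq2 called 483 genes, the block 2759 genes and 9 members, the block without passage 12 1493 and 8, without passage 14 2285 and 9, and without passage 18 2049 and 8; the 2 groups alone gave 79 genes and 1 member, and single libraries left out 33 to 152 genes and 0 to 3 members. For 0.5 µM against DMSO the block called 2, 6 and 2 genes without passages 12, 14 and 18, and turned Txnrd1 to 0.029 and Srxn1 to 0.068 (without passage 12) and Gclm to -0.0063 (without passage 14). Without the treatment term, passages 14 against 12, 18 against 12 and 18 against 14 gave 1623, 3269 and 2924 genes and 0, 1 and 1 members. Single libraries left out gave 2086 to 3668 genes in the first, and 3 to 6 and 3 to 7 members in the others, for which the numbers of all genes called are not given here.

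Keap1 in IP against INPUT turned to -0.0043 with RLE size factors and -0.040 with at least 10 counts in every library. For diet in IP, DESeq2 called 193 genes, no filter 398, the replicate block 52, all 16 libraries in one fit 121 (Gclm turning to -0.0072), and leaving out a library 5 to 50; 1 member, Hmox1, was called with DESeq2 and with no filter, and its adjusted p ran from 0.0566 to 0.274 with a library left out. In INPUT the same settings called 50, 116, 43 and 2 genes, and 2 to 17 with a library left out. For diet by fraction they called 2 with DESeq2, 1 with no filter and 1 with the block, and 0 to 1. Hypothalamic libraries with the same number deviated together by correlations of -0.0157 to 0.136 and share only a number; the block changed no member's call there. These causes were not tested.

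Uncalled members whose log2 fold change changed sign when a library was left out ranged as follows. At 0.5 µM against DMSO, Nfe2l2 -0.086 to 0.13, Keap1 -0.017 to 0.085, Hmox1 -0.025 to 0.22, Nqo1 -0.26 to 0.43, Slc7a11 -0.22 to 0.48, Gclm -0.036 to 0.10, Txnrd1 -0.080 to 0.037, Srxn1 -0.090 to 0.10 and Osgin1 -0.0042 to 0.30. At passage 14 against 12, Keap1 -0.027 to 0.016 and Osgin1 -0.090 to 0.35; at 18 against 12, Hmox1 -0.13 to 0.12; at 18 against 14, Gclc -0.15 to 0.0093, Srxn1 -0.039 to 0.093 and Osgin1 -0.14 to 0.26. In IP against INPUT, Keap1 -0.023 to 0.062. For diet by fraction, Nfe2l2 -0.14 to 0.010, Keap1 -0.16 to 0.0080, Gclc -0.11 to 0.0011, Gclm -0.048 to 0.023 and Osgin1 -0.51 to 0.24. For diet in IP, Keap1 -0.16 to 0.013, Nqo1 -0.087 to 0.12, Slc7a11 -0.087 to 0.046, Gclm -0.028 to 0.039 and Osgin1 -0.35 to 0.019. For diet in INPUT, Keap1 -0.041 to 0.037, Slc7a11 -0.0010 to 0.085, Gclc -0.068 to 0.019, Gclm -0.015 to 0.017, Txnrd1 -0.045 to 0.023 and Srxn1 -0.0084 to 0.060. Osgin1 is limited by depth, with 4 to 18 counts in hypothalamic libraries.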

Other observations

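Of 33 further NRF2 targets in cEND cells, 9 were called higher and 9 lower at passage 18 than at passage 12 (edgeR's quasi-likelihood test, treatment as covariate), where 35.1% of genes were called. Among those with the smallest p were glutathione transferase genes: Gstm1 rose by 1.09 ± 0.07 and Gstp1 by 0.73 ± 0.07 on the log2 scale, while Gsta1 fell by 4.08 ± 0.19 and Gsta4 by 2.16 ± 0.23. Glutathione transferases form multigene families with similar copies, and whether reads were split between copies was not tested. Of 21 heme and iron genes, 10 were called higher and 3 lower at passage 18, with the iron exporter gene Slc40a1 at 1.42 ± 0.14, Fth1 at 0.51 ± 0.07, and Hmox2, which encodes the constitutive heme oxygenase, at 0.49 ± 0.06.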
